A study of Mus musculus with 15 samples.

Results

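The genes of the presynaptic vesicle release machinery were followed through the development of mouse cerebellar granule neuron precursors and into medulloblastoma. The 38 genes, of 21889 in the gene count table, were listed by symbol for their presynaptic role. The rule itself uses no measured value, but the list was drawn up with earlier results of these data known. All 38 were in the table, and all 38 were among the 15259 genes that passed the filter on low counts. Poly(A) RNA was sequenced in 15 libraries from cerebellum, 3 in each of 5 groups. Granule neuron precursors (GNPs), the dividing cells of the outer cerebellar cortex that become granule neurons, were taken at embryonic day E15.5 from mice with the genotype Math1-GFP, and at postnatal days P1, P7 and P14 from wild type mice. The fifth group was medulloblastoma cells (MB), from a cerebellar tumour of Ptch1 heterozygous mice, whose labels give no age and do not say how many tumours or litters were used. Ptch1 encodes the receptor that holds Sonic hedgehog signalling in check. GNPs and MB cells were enriched on Percoll, a density gradient, and the labels' protocols describe no sorting by a marker.

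A neuron releases transmitter when calcium enters its terminal and a vesicle fuses with the membrane. Vesicular glutamate transporters load the vesicle, synapsins and Rab3 proteins hold and tether it, and scaffolds of the active zone with Unc13 priming factors bring it to the membrane. SNARE proteins on the vesicle and on the plasma membrane then zip together, complexins clamp and assist them, and synaptotagmins sense the calcium. Granule neurons are glutamatergic, and their parallel fibres form the main excitatory input of Purkinje cells.

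Levels below are CPM, read counts scaled by library size, changes are log2 fold changes ± SE from edgeR's quasi-likelihood fit to all 15 libraries (n = 3 per group), and a gene was called at a Benjamini-Hochberg false discovery rate (FDR) under 0.05 over all genes tested. The libraries held 12597472 to 43443132 counts in genes. The labels do not say that replicates came from separate animals, so the tests measure the spread between these libraries. In such bulk RNA, fewer neurons and less RNA per neuron cannot be told apart. The library labelled P1 replicate 3 stood apart from the other P1 libraries. It had 102 CPM of Gabra6, a receptor subunit of mature granule neurons, against 1.12 and 12.5 CPM in P1 replicates 1 and 2 and 161 to 202 CPM at P14. Over all genes tested, the library nearest to P1 replicate 3 was P14 replicate 1 (Spearman correlation 0.9896). P1 replicates 1 and 2 were nearest to each other (0.9867). Results at P1 are therefore given with and without P1 replicate 3 where they turn on it. MB replicate 1 also stood apart. Its nearest library was MB replicate 2, at 0.9527, the lowest such correlation of the 15 libraries. MB replicates 2 and 3 were nearest to each other (0.9923). E15.5 replicate 3 was low in long transcripts: its 543 genes with at least 8000 exonic bases had a median log2 deviation of -0.87 from the other E15.5 libraries. In 6 libraries, namely E15.5 replicates 1 and 3, MB replicate 1 and all of P7, the gene table lacked the reads of some genes that the transcript table held. The ratio of gene to transcript counts of the 37 members with a value did not separate these 6 libraries from the other 9.

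Most of the release genes were lower in medulloblastoma than at P7 and than at P14, and 11 were called higher at P14 than at P1. In MB against P7, 28 of the 38 were called, 3 higher and 25 lower, where 34.5% of all genes tested were called (13.7% higher and 20.7% lower). The median change of the 38 was -1.25, against 0.02 over all genes. In MB against P14, 29 were called, 1 higher and 28 lower, against 50% of all genes (22.9% higher and 27.2% lower), with a median of -1.49 against 0.01. Both comparisons use the same MB libraries. Without MB replicate 1, 25 were called against P7, 2 higher and 23 lower, beside 37.8% of all genes. Against P14, 28 were then called, 2 higher and 26 lower, beside 50.4% of all genes. The 38 genes summed to 2807 to 3239 CPM in MB, 4604 to 5376 CPM at P7 and 6510 to 7179 CPM at P14.

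Among the ages, 27 of the 38 differed in a test over all 4 ages, where 55.7% of all genes did. From E15.5 to P1, 16 were called, 7 higher and 9 lower, a share of 42.1% beside 46.3% of all genes (25.4% higher and 20.9% lower), a share near that of all genes. Without P1 replicate 3 the calls were 21, with 14 of the 16 among them. Of these 21, 5 were higher and 16 lower, where 40.1% of all genes were called. From P1 to P7 the call was Vamp2 alone, higher, beside 3.15% of all genes (1.4% higher and 1.74% lower). Without P1 replicate 3, 10 were called from P1 to P7, Vamp2 among them and all higher, where 5.73% of all genes were called. From P7 to P14, 7 were called and all were higher, a share of 18.4% beside 10.3% of all genes (5.81% higher and 4.51% lower). From P1 to P14, 11 were higher and 1 lower, together 31.6% beside 8.94% of all genes (3.63% higher and 5.31% lower), and the median change was 0.86 against 0.01. The comparisons between ages share the P1, P7 and P14 libraries with each other and with the MB comparisons. The count from P1 to P14 turned on single libraries. It was 24, with all 12 among them, without P1 replicate 3 (17.5% of all genes called). It was 0 without any 1 of the other 5 libraries by the same edgeR test, where 0.997% to 1.9% of all genes were called. In those fits 16 to 23 members still had an unadjusted p under 0.05. DESeq2, fitted to all 15 libraries, called 19, beside 16% of all genes. With the P1 and P14 libraries alone, edgeR called 15, beside 27.6% of all genes, with 7 of the 12 among them. The calls between E15.5 and P1 of Slc17a7, Syp, Sv2b, Sv2c, Vamp1, Syt2 and Syt11 were lost against E15.5 replicate 2 alone, the single E15.5 library counted like those of P1, with the spread taken from the other groups.

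**Figure D1:**
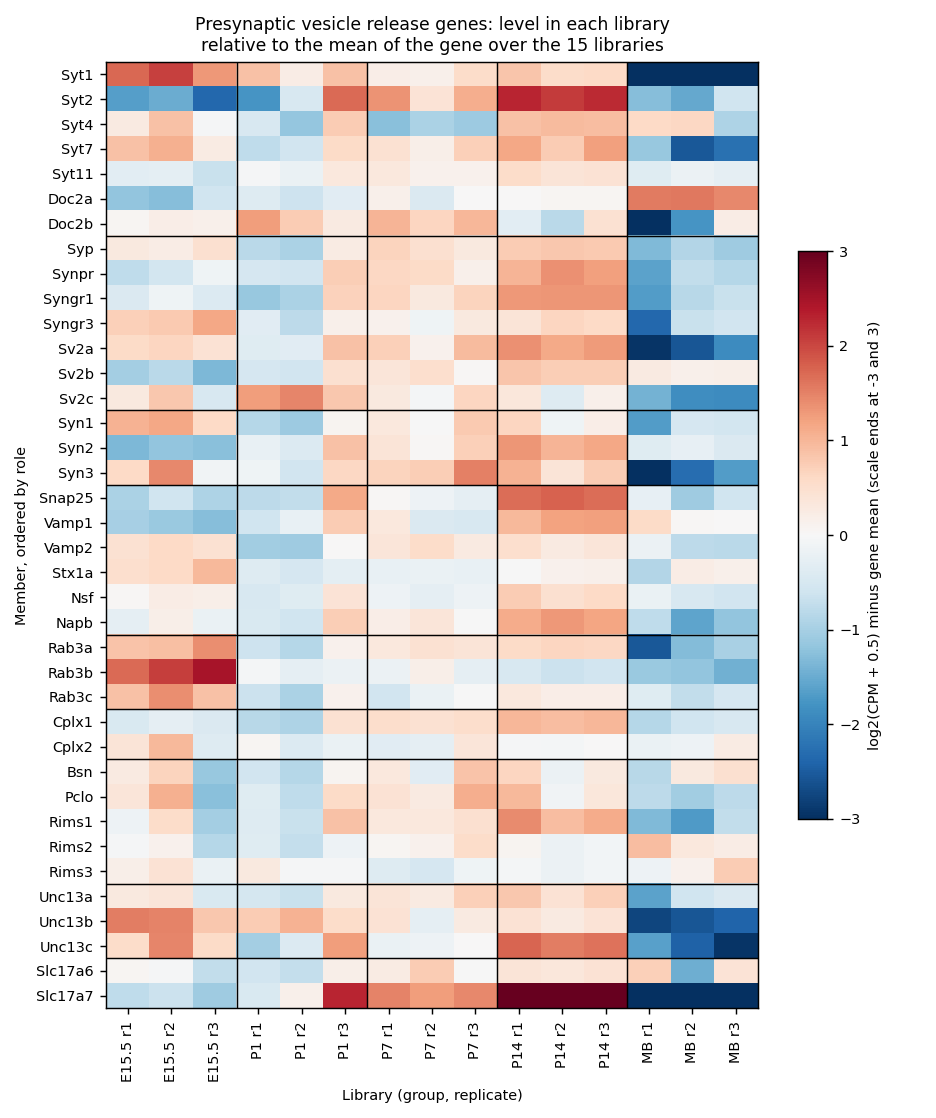
Level of each of the 38 genes in each of the 15 libraries, as log2(CPM + 0.5) minus the gene's mean over the libraries, with rows grouped by role. Colour ends at -3 and 3. The MB columns are blue for most rows, with Doc2a as a red exception, the P14 columns are red for most rows, and the third P1 library is redder than the other 2.

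Of the vesicular glutamate transporters, which fill vesicles with glutamate, one changed widely between groups and the other was called in no comparison. Slc17a7 (VGLUT1, chr7:52419291-52431508, plus strand, mm9) is the transporter of mature parallel fibres, and Slc17a6 (VGLUT2, chr7:58877200-58926495, plus strand, mm9) is the one that young granule neurons use first. Slc17a7 had CPM values of 16.97, 18.5 and 13.7 at E15.5, 20.9, 32.3 and 144 at P1, 83.1, 70.1 and 79.97 at P7, 239, 250.2 and 245 at P14 and 1.55, 0.977 and 0.64 in MB. Each P14 library was above every other library, each MB library below every other, and P1 replicate 3 was more than 4 times the other P1 libraries. From E15.5 to P1 it rose with a log2 change of 2.01 ± 0.51 (FDR 0.00494), and from P1 to P14 by 1.90 ± 0.50 (FDR 0.0324). Without P1 replicate 3 the first value was 0.70 and the second 3.20, both still called. The step from P7 to P14 was 1.66 ± 0.50 (FDR 0.0467), and its call was lost with the transcript table and without any 1 of the 6 libraries. In MB it was lower than at P7 by 73.7-fold, with a log2 change of -6.20 ± 0.64 (FDR 2.97e-06), and against P14 the change was -7.86 ± 0.68 (FDR 3.95e-07). These MB levels rest on 39, 40 and 16 counts.

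The levels of Slc17a6 were, in CPM, 100.4, 94.1 and 57.4 at E15.5, 64.03, 58.4 and 107 at P1, 114, 163 and 94.9 at P7, 125, 121 and 129.9 at P14 and 157, 34.6 and 127 in MB. MB replicate 2 was the lowest of all 15 libraries and MB replicate 1 the second highest, and the MB libraries overlapped every age. The gene was called in no comparison, with changes of -0.22 ± 0.41 (FDR 0.722) in MB against P7 and 0.71 ± 0.41 (FDR 0.283) from P1 to P14. Per kilobase of exon, Slc17a7 made up 19.9%, 22.4% and 26.02% of the sum of both transporters in the E15.5 libraries, 51.8%, 38.8% and 55.3% at P7 and 73.8%, 75.2% and 73.5% at P14. In the MB libraries its share was 1.43%, 3.98% and 0.734%, so nearly all transporter RNA there was Slc17a6.

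Promoter sequences of the transporters are shown because Slc17a7 was called in every comparison but P7 against P1 and Slc17a6 in none, together with those of Syn1 and Rab3b, whose falls from E15.5 to P1 are described further on. Each is the 250 bases before the transcription start in RefSeq (GRCm38.p6), 5′ to 3′ on the gene's strand. They lie at chr7:45163671-45163920 for Slc17a7 (plus strand), chr7:51621580-51621829 for the first of the Slc17a6 starts (plus), chrX:20920919-20921168 for Syn1 (minus) and chr4:108878820-108879069 for Rab3b (plus). Capitals mark matches on either strand to the GC box GGGCGG, which a match on the other strand shows reversed and complemented, the TATA box TATAAA, the cAMP response element TGACGTCA, which reads the same on both strands, or TCAGCACC, the first letters of the RE1 element bound by the repressor REST.

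Slc17a7: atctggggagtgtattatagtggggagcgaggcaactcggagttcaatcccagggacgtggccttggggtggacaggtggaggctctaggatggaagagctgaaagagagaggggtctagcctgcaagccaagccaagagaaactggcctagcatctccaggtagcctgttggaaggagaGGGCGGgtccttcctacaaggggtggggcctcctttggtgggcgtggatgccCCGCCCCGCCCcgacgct

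Slc17a6: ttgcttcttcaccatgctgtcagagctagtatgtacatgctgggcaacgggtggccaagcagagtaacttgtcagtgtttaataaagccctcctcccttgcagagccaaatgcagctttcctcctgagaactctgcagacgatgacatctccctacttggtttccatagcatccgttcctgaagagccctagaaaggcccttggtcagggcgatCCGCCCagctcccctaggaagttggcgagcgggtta

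Syn1: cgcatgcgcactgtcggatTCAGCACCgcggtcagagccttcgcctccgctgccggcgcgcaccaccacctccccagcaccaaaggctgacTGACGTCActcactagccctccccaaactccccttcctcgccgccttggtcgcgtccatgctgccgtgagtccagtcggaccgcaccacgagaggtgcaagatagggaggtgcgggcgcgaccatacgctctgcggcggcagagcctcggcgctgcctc

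Rab3b: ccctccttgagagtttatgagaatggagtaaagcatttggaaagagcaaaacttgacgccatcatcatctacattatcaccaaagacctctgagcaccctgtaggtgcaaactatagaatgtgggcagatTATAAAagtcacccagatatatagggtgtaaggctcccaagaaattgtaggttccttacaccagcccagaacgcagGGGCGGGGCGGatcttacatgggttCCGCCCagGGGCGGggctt

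GC content was 61.2% for Slc17a7, 53.2% for Slc17a6, 68% for Syn1 and 48.8% for Rab3b. Among the 29 members with a RefSeq promoter, over windows of 300 bases (250 before to 50 after the start), 24 held the GC box, against 38.2% of all 27025 genes with a promoter. TATAAA was in 2 (Sv2b and Rab3b), against 15.7% of genes. TGACGTCA was in Syn1 alone among the members, against 2.03% of genes, and TCAGCACC was in Syn1 and Unc13a, against 1.85%.

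In MB, 20.7% of all genes were called lower against P7 and 27.2% against P14. Of the 7 genes for proteins of the vesicle membrane, 6 were called lower against each. Synaptophysin (Syp), the most abundant of them in the table by CPM and a marker of synaptic vesicles, had CPM values of 309, 294 and 351 at E15.5, 143, 129.9 and 299 at P1, 397, 349.9 and 305 at P7, 429, 436 and 431 at P14 and 99.3, 136 and 119.6 in MB. The MB libraries were below those of E15.5, P7 and P14 and overlapped P1 replicates 1 and 2, which were below the rest of the precursor libraries. Syp changed by -1.57 ± 0.26 (FDR 0.000263) in MB against P7, by -0.74 ± 0.26 (FDR 0.0287) from E15.5 to P1 and by 1.18 ± 0.26 (FDR 0.0154) from P1 to P14. The fall at P1 was lost when E15.5 replicate 1 or 3, or P1 replicate 1 or 2, was left out, and stood at -1.22 without P1 replicate 3.

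Synaptogyrin 1 (Syngr1), a relative of synaptophysin, had CPM values of 67.7, 83.9 and 68.02 at E15.5, 41.1, 46.99 and 148 at P1, 144, 111 and 145 at P7, 225, 228 and 229 at P14 and 28.2, 51.03 and 57.6 in MB. P14 was above all other libraries, and P1 replicate 3 was just above the P7 libraries. Its rise from P1 to P14 was 1.53 ± 0.39 (FDR 0.0272), and its change in MB against P14 -2.32 ± 0.40 (FDR 0.000196). From E15.5 to P1 the change was 0.10 ± 0.38 (FDR 0.845), and without P1 replicate 3 it was -0.73 and called, in the opposite direction. Synaptoporin (Synpr), which belongs to the same family, rose with a log2 change of 1.20 ± 0.32 (FDR 0.0351) from P1 to P14 and was lower in MB than at P7 with a log2 change of -1.50 ± 0.33 (FDR 0.00213). Syngr3 fell with a log2 change of -1.18 ± 0.36 (FDR 0.0143) from E15.5 to P1, not called without P1 replicate 2. Its change in MB against P7 was -1.13 ± 0.36 (FDR 0.0232), not called without P7 replicate 1 or 3.

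The Sv2 proteins are transporter-like glycoproteins of the vesicle that take part in calcium-triggered release. Sv2a had 161 ± 43.9 CPM (SD, n = 3) at P7, 249 ± 18.98 CPM at P14 and 19.2 ± 7.64 CPM in MB, a change of -3.06 ± 0.35 (FDR 9.32e-06) against P7 and -3.69 ± 0.36 (FDR 1.34e-06) against P14. Sv2b stood at 215 ± 35.3 CPM at P7 and 198 ± 7.95 CPM in MB, and was not called in either MB comparison (-0.12 ± 0.24, FDR 0.753 against P7). Per kilobase of exon, Sv2a was 49.4%, 36.9% and 59.01% of the sum of Sv2a and Sv2b in the P7 libraries, and 7.403%, 10.1% and 15.3% in MB. The shares of MB did not overlap those of any age, the E15.5 shares lay above those of all other groups at 69.9%, 67.9% and 72.4%, and no test was made of these shares.

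Sv2c, the scarcest of the Sv2 genes, was the single member called lower from P1 to P14, where 6 of the 38 changes were below 0. Its levels were, in CPM, 5.02, 7.35 and 2.73 at E15.5, 10.2, 11.9 and 7.35 at P1, 5.03, 3.84 and 6.55 at P7, 5.16, 2.92 and 4.48 at P14 and 1.19, 0.733 and 0.72 in MB. P1 replicates 1 and 2 were the highest libraries, and the MB libraries the lowest. The change was -1.23 ± 0.37 (FDR 0.0484) from P1 to P14, 0.98 ± 0.37 (FDR 0.0386) from E15.5 to P1 and -2.54 ± 0.40 (FDR 0.000152) in MB against P7. The fall from P1 to P14 was not called with DESeq2 size factors, with no filter on low counts, or without any 1 of the P14 libraries or P1 replicate 1 or 2. The rise at P1 was not called with the compared groups alone, without E15.5 replicate 1 or 3 or without P1 replicate 1 or 2.

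Synapsins coat the vesicle and hold it in the reserve cluster. Syn1 had CPM values of 185, 200.4 and 134 at E15.5, 49.1, 41.2 and 93.5 at P1, 111, 88.9 and 154 at P7, 139, 81.3 and 102 at P14 and 27.3, 62.4 and 60.9 in MB. From E15.5 to P1 it fell with a log2 change of -1.50 ± 0.36 (FDR 0.0032), and the P1 libraries lay below every E15.5 library. It was lower in MB with a log2 change of -1.23 ± 0.35 (FDR 0.0133) against P7, where the call was lost without P7 replicate 3. Syn2 had CPM values of 26.2, 29.6 and 27.8 at E15.5, 57.5, 50.6 and 124 at P1, 88.1, 69.3 and 111 at P7, 169, 136 and 151 at P14 and 52.5, 56.6 and 49.6 in MB, with the E15.5 libraries below all others and the P14 libraries above. It rose with a log2 change of 1.47 ± 0.28 (FDR 0.000615) from E15.5 to P1, opposite to Syn1, and by 0.97 ± 0.27 (FDR 0.0401) from P1 to P14. The share of Syn2 in the sum of Syn1 and Syn2, per kilobase, was 10.8%, 11.2% and 15.1% at E15.5 and 50.04%, 51.2% and 53.2% at P1, and the latter included P1 replicate 3 within a narrow range. Syn3 had CPM values of 23.03, 41.4 and 13.8 at E15.5, 13.6, 9.89 and 23.2 at P1, 23.99, 25.3 and 43.8 at P7, 31.1, 19.7 and 25.6 at P14 and 1.39, 2.69 and 4.36 in MB. All MB libraries were below all others, with a change of -3.46 ± 0.49 (FDR 5.98e-05) against P7 and -3.18 ± 0.48 (FDR 7.11e-05) against P14. Syn2 was lower in MB than at P14 with a log2 change of -1.52 ± 0.28 (FDR 0.000331). Against P7 its change was -0.76 ± 0.27 (FDR 0.0428), which was not called without P7 replicate 1 or 3 or without any of the MB libraries.

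From E15.5 to P1, 20.9% of all genes were called lower. All Rab3 genes, which encode small GTPases that tether vesicles to the active zone, were called lower there. Rab3a and Rab3b are short, at 1709 and 1078 exonic bases, and Rab3c is long, at 8500. Genes of at most 2000 exonic bases had a median change of -0.52 in this comparison, and those of at least 8000 one of 0.30. The part of transcript length in the falls was not tested. Rab3a, the most abundant by CPM, had CPM values of 263, 271 and 384 at E15.5, 93.6, 79.4 and 159.6 at P1, 181, 199.6 and 188 at P7, 216, 226 and 222 at P14 and 24.6, 58.6 and 73.5 in MB. E15.5 was above all other groups, MB below, and MB replicate 1 below the other MB libraries by more than 2 times. The change was -1.46 ± 0.33 (FDR 0.00207) from E15.5 to P1 and -1.86 ± 0.33 (FDR 0.000451) in MB against P7. Rab3b had CPM values of 15.2, 19.96 and 26.6 at E15.5, 4.16, 3.53 and 3.81 at P1, 3.799, 4.97 and 3.51 at P7, 2.97, 2.59 and 2.77 at P14 and 1.75, 1.64 and 1.28 in MB, so its fall was 5.38-fold, -2.43 ± 0.26 (FDR 4.75e-06), and no later library reached the E15.5 range. It was lower again in MB, with a log2 change of -1.39 ± 0.26 (FDR 0.00064) against P7. Rab3c had CPM values of 284, 403 and 285 at E15.5, 98.7, 79.2 and 167 at P1, 104, 133 and 153 at P7, 190.2, 176 and 177 at P14 and 119, 91.4 and 109 in MB. Its E15.5 libraries were above every other library, and it fell with a log2 change of -1.49 ± 0.25 (FDR 0.000237) from E15.5 to P1. From P1 to P14 the changes were 1.00 for Rab3a, -0.46 for Rab3b and 0.66 for Rab3c, none called. Without P1 replicate 3, Rab3a (1.36) and Rab3c (1.03) were called higher at P14.

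The summed markers of other neurons were also higher in every E15.5 library than in every P1 library. The sum of 8 GABAergic interneuron markers (Pax2, Gad1, Slc32a1 and others) was 549 to 768 CPM at E15.5, 209 to 318 CPM at P1, 275 to 408 CPM at P7, 137 to 206 CPM at P14 and 7.41 to 10.4 CPM in MB, where Pax2 had 0, 1 and 0 counts. The sum of 8 Purkinje cell markers was 455 to 682, 229 to 366, 257 to 879, 250 to 410 and 84.7 to 165 CPM in the same order. For unipolar brush cells and cerebellar nuclear neurons it was 290 to 545 CPM at E15.5, 111 to 149 CPM at P1, 75.2 to 118 CPM at P7, 182 to 198 CPM at P14 and 45.4 to 99.1 CPM in MB. From E15.5 to P1, 7 of 8 GABAergic interneuron markers were called lower and 1 higher, and 2 of 8 Purkinje cell markers lower and 2 higher. For unipolar brush cells and cerebellar nuclear neurons, 6 of 8 were called lower and 0 higher. Of all genes, 20.9% were called lower and 25.4% higher. In MB against P7, 8, 6 and 5 of 8 were called lower and 0, 1 and 1 higher, in the same order. The genotype label also differs between E15.5 and the later ages. The part of these cells and of the genotype in the falls at P1 and in MB was not tested. Markers of cells other than neurons moved too. The sum of 8 oligodendrocyte markers was 41.3 to 61.97 CPM at E15.5, 266 to 3615 CPM at P1, highest in P1 replicate 3, 742 to 1653 CPM at P7, 5756 to 6212 CPM at P14 and 144 to 379 CPM in MB. The sum of 8 astroglia markers was 356 to 508 CPM at E15.5, 2948 to 4411 CPM at P1, 2355 to 4590.1 CPM at P7, 3816 to 5113 CPM at P14 and 1681 to 2066 CPM in MB. That of 6 endothelium markers was 11.2 to 30.5 CPM at E15.5, 376 to 567 CPM at P1, 285 to 348 CPM at P7, 691 to 725 CPM at P14 and 17.6 to 31.5 CPM in MB. That of 8 markers of microglia and macrophages was 5.43 to 24.4, 79.9 to 135, 43.9 to 139, 131 to 189 and 144 to 421 CPM in the same order. Within MB it was 421, 172 and 144 CPM in replicates 1 to 3. Between E15.5 and P1, all markers of oligodendrocytes, astroglia and endothelium and 7 of 8 of microglia were called higher. In MB against P7, 6 of 8 oligodendrocyte, 5 of 8 astroglia and 6 of 6 endothelium markers were called lower, 1 of 8 oligodendrocyte and 1 of 8 astroglia markers higher, and 5 of 8 markers of microglia higher. Their part in the falls at P1 and in MB was not tested. A sum of 10 maturing granule neuron markers was 1741 to 3479 CPM at E15.5, 2076 to 4111 CPM at P1, 4267 to 4993 CPM at P7, 4424 to 5726 CPM at P14 and 1511 to 2287 CPM in MB. That of 10 granule precursor markers was 3136 to 4656, 4767 to 5886, 6121 to 7559, 4236 to 4809 and 7510 to 9242 CPM in the same order. The part of both lists in the results was not tested either.

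**Figure D2:**
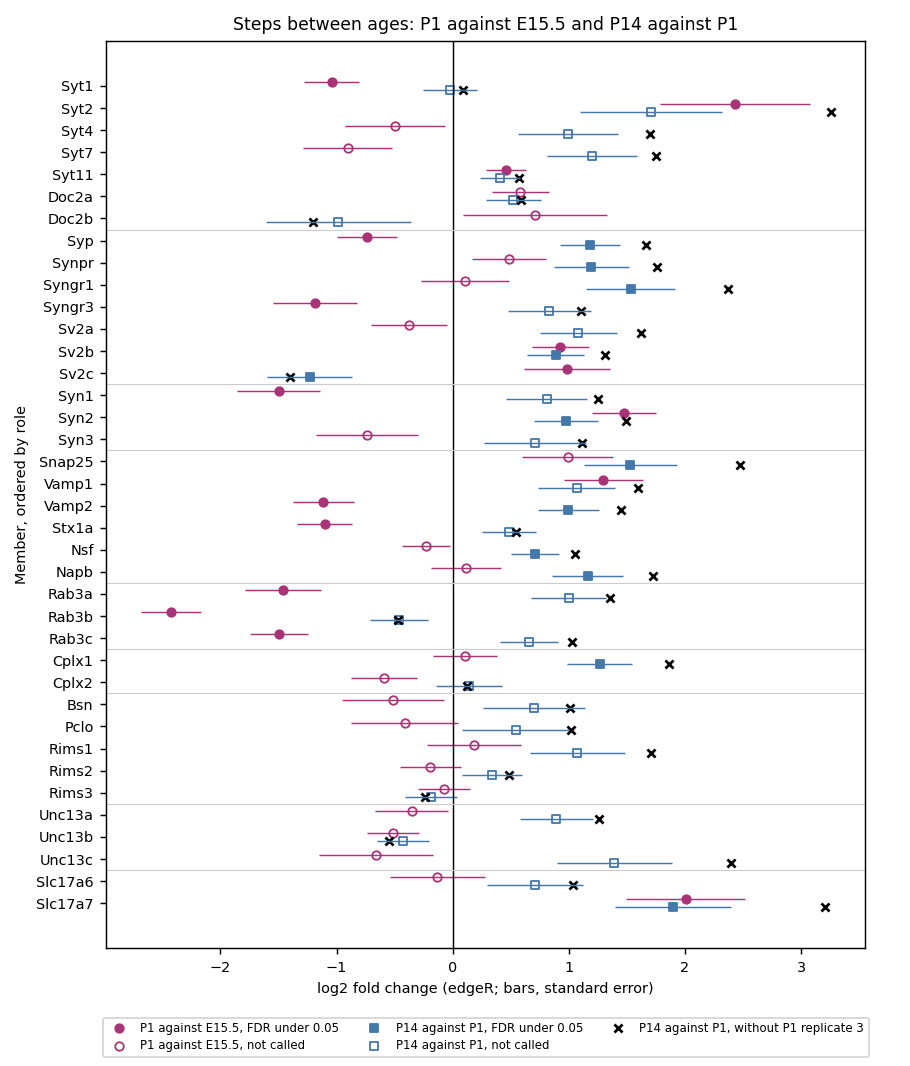
Log2 fold change of each gene from E15.5 to P1 (circles) and from P1 to P14 (squares), filled where called at an FDR under 0.05, with bars of 1 SE; crosses give P14 against P1 without P1 replicate 3. Genes are ordered by role. The Rab3 genes are left of 0 in the first step, and the crosses lie further right than the squares for most genes, such as Slc17a7 at 3.20 and Snap25 at 2.48.

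Of the 6 genes for SNAREs and proteins that take the spent SNARE complex apart, 4 were called higher from P7 to P14, beside 5.81% of all genes. Snap25, a SNARE of the plasma membrane, had CPM values of 109.7, 139 and 112 at E15.5, 122, 126 and 468 at P1, 218, 191 and 174 at P7, 672, 721 and 676 at P14 and 178, 101 and 138 in MB. The P14 libraries were above all others, and P1 replicate 3 came next, at more than 3 times the other P1 libraries. The change was 1.83 ± 0.40 (FDR 0.0151) from P7 to P14 and 1.53 ± 0.40 (FDR 0.0313) from P1 to P14 (2.48 without P1 replicate 3). In MB against P14 it was -2.31 ± 0.41 (FDR 0.000274), but against P7 it was -0.48 ± 0.39 (FDR 0.381). Per kilobase of exon Snap25 was the highest of the 37 members with a length at P14, at 326 ± 12.8 CPM per kilobase (SD, n = 3), and 4th at P7, at 91.7 ± 10.5.

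Vamp2, the main SNARE of synaptic vesicles, had CPM values of 274, 304 and 273 at E15.5, 96.8, 94.4 and 202 at P1, 256, 295 and 240.1 at P7, 285, 243 and 257 at P14 and 178, 115 and 114 in MB. P1 replicates 1 and 2 were the lowest of the 15 libraries. It fell with a log2 change of -1.11 ± 0.26 (FDR 0.00302) from E15.5 to P1, and from P1 to P7 it rose with a log2 change of 1.01 ± 0.26 (FDR 0.0497), the call that ended without P1 replicate 1 or 2 or without any of the P7 libraries. In MB against P7 the change was -0.96 ± 0.26 (FDR 0.00979), and -0.58 (FDR 0.212) against MB replicate 1 alone, the single MB library counted like those of P7, whose spread is not measured and was taken from the other groups. Vamp1, its close relative, had CPM values of 6.15, 5.596 and 4.94 at E15.5, 8.197, 10.8 and 21.97 at P1, 15.96, 9.33 and 8.98 at P7, 25.4, 29.8 and 30.7 at P14 and 19.3, 13.04 and 12.8 in MB. The E15.5 libraries were below all others and the P14 libraries above. It rose with a log2 change of 1.30 ± 0.34 (FDR 0.00609) from E15.5 to P1 and by 1.33 ± 0.33 (FDR 0.0245) from P7 to P14, and its call in MB was a lower level than at P14 (-0.93 ± 0.33, FDR 0.0291), which was lost without P14 replicate 2 or 3 or MB replicate 2 or 3. The share of Vamp1 in the pair was 1.75%, 1.44% and 1.42% at E15.5, 6.31%, 8.33% and 7.96% at P1, 4.72%, 2.46% and 2.89% at P7, 6.61%, 8.91% and 8.68% at P14 and 7.96%, 8.295% and 8.18% in MB, so Vamp2 supplied most of the RNA throughout.

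Stx1a, the plasma membrane syntaxin, fell from 64.6 ± 11.5 to 30.1 ± 2.25 CPM between E15.5 and P1 (-1.10 ± 0.24, FDR 0.00165) and was not called in either MB comparison. MB replicate 1 had 21.2 CPM and the other MB libraries 45.9 and 44.4 CPM, and against MB replicate 1 alone the change from P7 was -0.69, a value of 1 library. Nsf, the ATPase that unwinds used SNARE complexes, stood at 84.4 ± 4.16 CPM in the P7 group and rose to 149 ± 14.4 CPM in the P14 group (0.82 ± 0.21, FDR 0.025). Napb, the beta form of its adaptor SNAP, rose from 83.5 ± 10.997 to 167 ± 11.1 CPM (1.00 ± 0.30, FDR 0.0473). Both were lower in MB than at P14, with log2 changes of -1.04 (FDR 0.000743) and -2.36 (FDR 2.29e-05). All 7 calls from P7 to P14 were lost without P7 replicate 2 or without P14 replicate 2, where 7 and 8 members had an unadjusted p under 0.05 by edgeR. Of all genes, 1.02% and 0.809% were called in these fits. With all libraries DESeq2 called 8, beside 16% of all genes.

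The complexins bind the assembled SNAREs. Cplx1 had CPM values of 98.9, 113 and 101 at E15.5, 76.6, 71.5 and 188 at P1, 199, 188 and 199 at P7, 272, 262 and 274 at P14 and 75.1, 89.8 and 97.6 in MB. The P14 libraries were above all others, P1 replicate 3 was at the P7 level, and the MB libraries lay with E15.5 and the lower P1 libraries. From P1 to P14 it rose with a log2 change of 1.27 ± 0.28 (FDR 0.0156) (1.86 without P1 replicate 3), and in MB it was lower than at P7 with a log2 change of -1.16 ± 0.28 (FDR 0.00432). From E15.5 to P1 the change was 0.10 ± 0.28 (FDR 0.784), and without P1 replicate 3 it was -0.49 and called lower. Cplx2 had CPM values of 605, 909 and 355 at E15.5, 487, 351 and 402 at P1, 365, 385 and 594 at P7, 450.3, 448 and 469 at P14 and 404, 417 and 554 in MB, its libraries overlapped between all groups, and it was called in no comparison, with 0.03 ± 0.28 (FDR 0.947) in MB against P7. It was the highest member per kilobase in MB, at 93.1 ± 16.9 CPM per kilobase, and 3rd at E15.5, at 126 ± 56.4. Cplx1 was 55.05%, 52.4% and 42.96% of the pair in the P7 libraries and 29.5%, 32.6% and 28.4% in those of MB, without overlap.

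**Figure D3:**
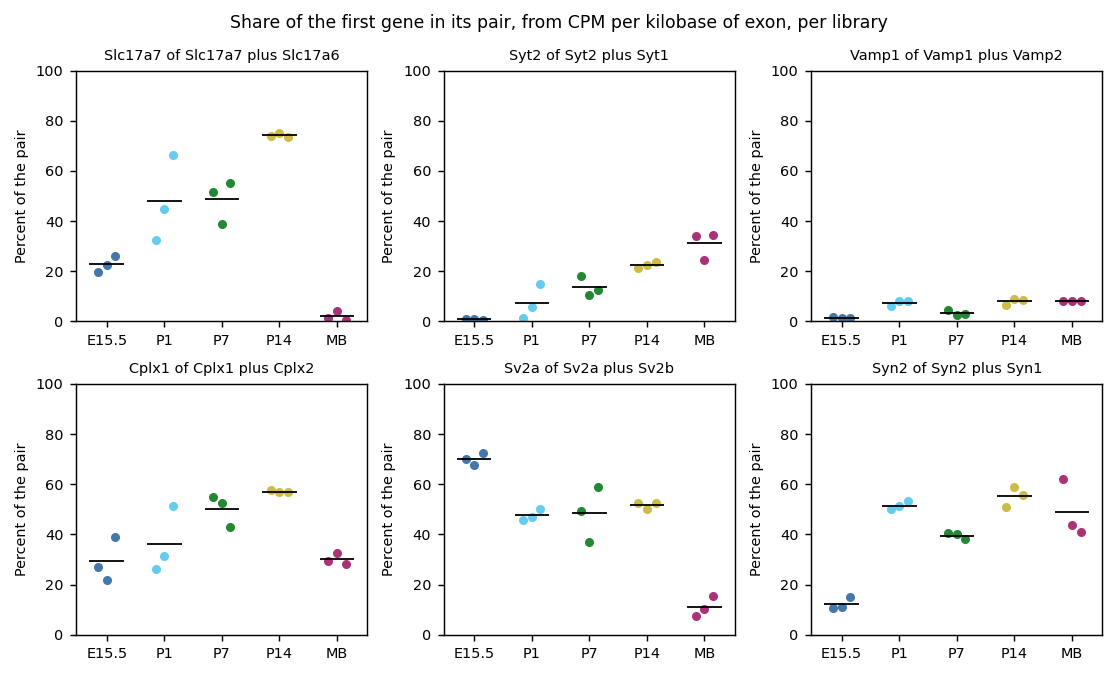
Share of the first gene in 6 pairs of related genes, from CPM per kilobase of exon, for each library (points, replicates 1 to 3 from the left) with the group mean (line), on axes from 0 to 100%. Slc17a7 and Sv2a take a lower share of their pairs in MB than in any precursor library, and Syt2 takes a higher one.

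All 3 Unc13 priming factor genes were called lower in MB against P7 and against P14, beside 20.7% and 27.2% of all genes. The Unc13 proteins ready the docked vesicle for fusion. Unc13a, the main form in forebrain synapses, had CPM values of 285, 300.1 and 169.8 at E15.5, 159.6, 146 and 286 at P1, 305, 280.5 and 378 at P7, 404, 314 and 381 at P14 and 75.4, 152 and 172 in MB. The MB libraries overlapped those of P1 and E15.5 but not those of P7 or P14, and the change was -1.27 ± 0.32 (FDR 0.0059) against P7. Unc13b had 102 ± 26.7 CPM at E15.5, 46.2 ± 10.98 CPM at P7 and 6.48 ± 0.886 CPM in MB (SD, n = 3), a change of -2.83 ± 0.24 (FDR 5.78e-07) against P7 and -3.03 ± 0.24 (FDR 2.27e-07) against P14, called under every alternative that was run. Unc13c, the form that is typical of cerebellum, had CPM values of 18.4, 35.3 and 18.8 at E15.5, 5.92, 9.27 and 30.4 at P1, 10.8, 11.2 and 12.5 at P7, 43.3, 37.01 and 39.6 at P14 and 3.73, 1.91 and 1.201 in MB. The P14 libraries were the highest and the MB libraries the lowest, and E15.5 replicate 2 and P1 replicate 3 were the precursor libraries nearest to the P14 range. It rose with a log2 change of 1.80 ± 0.50 (FDR 0.0347) from P7 to P14 and was lower in MB with a log2 change of -2.34 ± 0.53 (FDR 0.00273) against P7 and -4.14 ± 0.56 (FDR 2.58e-05) against P14.

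The scaffolds of the active zone lay out the release site. None of the 5 was called in a comparison of neighbouring ages or from P1 to P14; over the 6 libraries of that last comparison Rims1 changed by 1.07 ± 0.41 (FDR 0.104), and it was called without P1 replicate 3 (1.71). Bassoon (Bsn), a giant scaffold, had CPM values of 231, 302 and 86.2 at E15.5, 128, 105 and 201 at P1, 237, 152 and 348 at P7, 301, 169.5 and 235 at P14 and 107, 235 and 266 in MB. Its groups overlapped throughout and it was called in no comparison. Bsn and piccolo (Pclo) have the longest transcripts of the list, at 15937 and 20082 exonic bases, and both were lowest at E15.5 in replicate 3, the library poor in long transcripts, where Pclo had 58.0 CPM beside 177 and 292 CPM. Pclo was lower in MB with a log2 change of -1.51 ± 0.47 (FDR 0.021) against P7, not called without P7 replicate 3 or MB replicate 2, and the change was -1.34 ± 0.47 (FDR 0.0271) against P14, not called without P14 replicate 1 or any 1 of the MB libraries. Rims1, which links vesicles, calcium channels and Unc13, was lower with a log2 change of -1.60 ± 0.41 (FDR 0.00721) and -2.41 ± 0.42 (FDR 0.00025). Rims2 was at 75.1 ± 15.1 CPM at P7 and 90.1 ± 25.7 CPM in MB and was not called (0.26 ± 0.26, FDR 0.474). Rims3, a short relative, had CPM values of 105, 125 and 80.6 at E15.5, 113, 90.8 and 91.1 at P1, 70.5, 65.6 and 84.7 at P7, 89.7, 82.2 and 87.9 at P14 and 83.3, 101 and 158 in MB. The MB libraries overlapped those of P7, with MB replicate 3 the highest of all libraries. The gene was called higher against P7 (0.63 ± 0.22, FDR 0.0382), a call that ended with the compared groups alone, without P7 replicate 1 or 2 and without MB replicate 3, and it was not called against P14 (0.40 ± 0.22, FDR 0.149).

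Among the calcium sensors, Syt1 and Syt2 changed in opposite directions from E15.5 to P1. Syt1, the main fast sensor of forebrain synapses, had CPM values of 403, 505 and 299 at E15.5, 222, 141 and 224 at P1, 139, 135 and 178 at P7, 217, 177 and 184 at P14 and 9.08, 11.8 and 14.7 in MB. The E15.5 libraries were the highest and the MB libraries more than 9 times below the lowest precursor library. It fell with a log2 change of -1.04 ± 0.24 (FDR 0.00242) from E15.5 to P1, and in MB it was 12.7-fold lower than at P7, -3.67 ± 0.26 (FDR 1.04e-07), and 16.2-fold lower than at P14, -4.02 ± 0.27 (FDR 4.61e-08). Syt2, the fast sensor of hindbrain and cerebellar synapses, had CPM values of 5.19, 5.85 and 2.99 at E15.5, 4.68, 12.3 and 57.5 at P1, 44.4, 23.3 and 37.1 at P7, 85.5, 75.1 and 83.4 at P14 and 6.86, 5.62 and 11.2 in MB. P1 replicate 3 was above every P7 library, while P1 replicate 1 was within the E15.5 range. It rose with a log2 change of 2.43 ± 0.65 (FDR 0.00665) from E15.5 to P1, a call that ended without P1 replicate 3, and changed by 1.71 ± 0.61 (FDR 0.0886) from P1 to P14, which was 3.26 and called without that library. In MB it was lower with a log2 change of -2.15 ± 0.63 (FDR 0.0147) against P7, not called without MB replicate 2. Per kilobase, Syt2 was 0.88%, 0.792% and 0.686% of the pair at E15.5, 21.4%, 22.6% and 23.8% at P14 and 34.3%, 24.7% and 34.5% in MB, where both were low.

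Syt11, which does not bind calcium in the manner of Syt1 and is found outside synapses too, was the most abundant sensor by CPM, with CPM values of 390.1, 397 and 308 at E15.5, 477, 424 and 606 at P1, 605, 534 and 535 at P7, 707, 637 and 659 at P14 and 379, 428 and 404 in MB. The P14 libraries were highest, and the E15.5 and MB libraries overlapped. Its change in MB was -0.73 ± 0.17 (FDR 0.00252) against P14 and -0.47 ± 0.17 (FDR 0.0456) against P7, the latter lost without any 1 of the 6 libraries compared. Syt4, an inducible form, had CPM values of 93.6, 143 and 74.7 at E15.5, 55.5, 34.4 and 131 at P1, 31.8, 39.5 and 35.8 at P7, 143, 149.8 and 146 at P14 and 117, 119 and 40.5 in MB. All P7 libraries were lower than all P14 libraries and all MB libraries, and MB replicate 3 was near P7. Syt4 was called higher in MB than at P7 (1.37 ± 0.44, FDR 0.0235) and rose between P7 and P14 (2.03 ± 0.44, FDR 0.0144), and was not called in MB against P14 (-0.67 ± 0.43, FDR 0.209). The MB call ended without P7 replicate 1 or 3 or without MB replicate 1 or 2. Syt7, a slow sensor, had 51.7 ± 9.57 CPM at P7 and 10.1 ± 5.72 CPM in MB, a change of -2.36 ± 0.40 (FDR 0.000327).

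Doc2a was called higher in MB against both P7 and P14. It is a soluble sensor for spontaneous and late release, and it had CPM values of 3.18, 2.92 and 5.02 at E15.5, 5.84, 4.92 and 6.104 at P1, 8.77, 5.68 and 7.897 at P7, 7.86, 8.14 and 8.22 at P14 and 24.1, 24.4 and 22.1 in MB. The MB libraries were above all others by more than 2 times, and the precursor libraries ranged from 2.92 to 8.77 CPM. The change was 1.66 ± 0.24 (FDR 7.61e-05) against P7 and 1.54 ± 0.24 (FDR 8.45e-05) against P14. Part of these reads cannot be assigned with certainty: the gene table held less of Doc2a than the transcript table in every library, with a log2 ratio from -3.71 to -1.48. With the transcript table the changes were 0.80 and 1.04, both called, and the change from E15.5 to P1 turned from 0.58 to -0.60. Doc2b, its relative, had 0.833, 2.91 and 13.2 CPM in the MB libraries and 21.4 ± 3.06 CPM at P7, a change of -1.93 ± 0.64 (FDR 0.0292) that was lost without P7 replicate 1 or 3 or MB replicate 2. MB replicate 3 lay within the range of the P14 libraries, and against P14 Doc2b was not called (-0.86 ± 0.63, FDR 0.27).

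**Figure D4:**
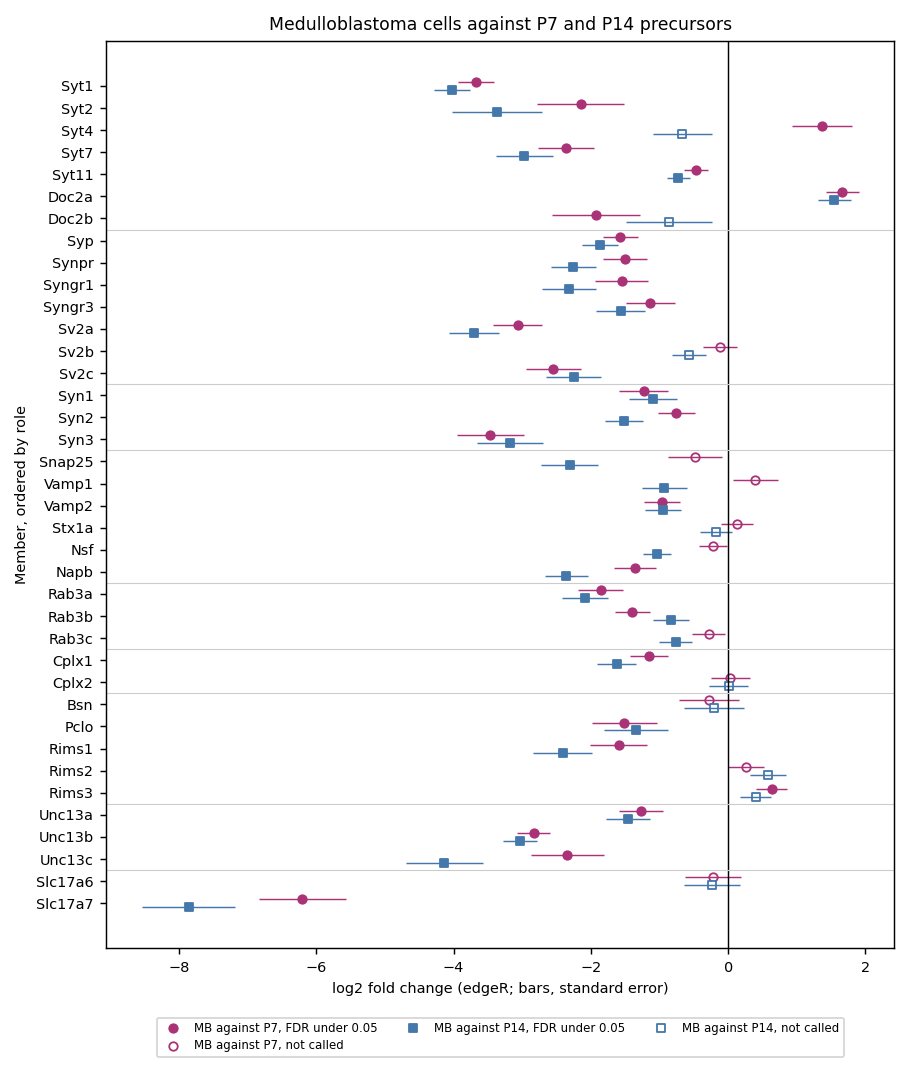
Log2 fold change of each gene in MB against P7 (circles) and against P14 (squares), filled where called at an FDR under 0.05, with bars of 1 SE. Most genes lie left of 0, down to -6.20 and -7.86 for Slc17a7, and Doc2a is right of 0 in both.

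**Figure D5:**
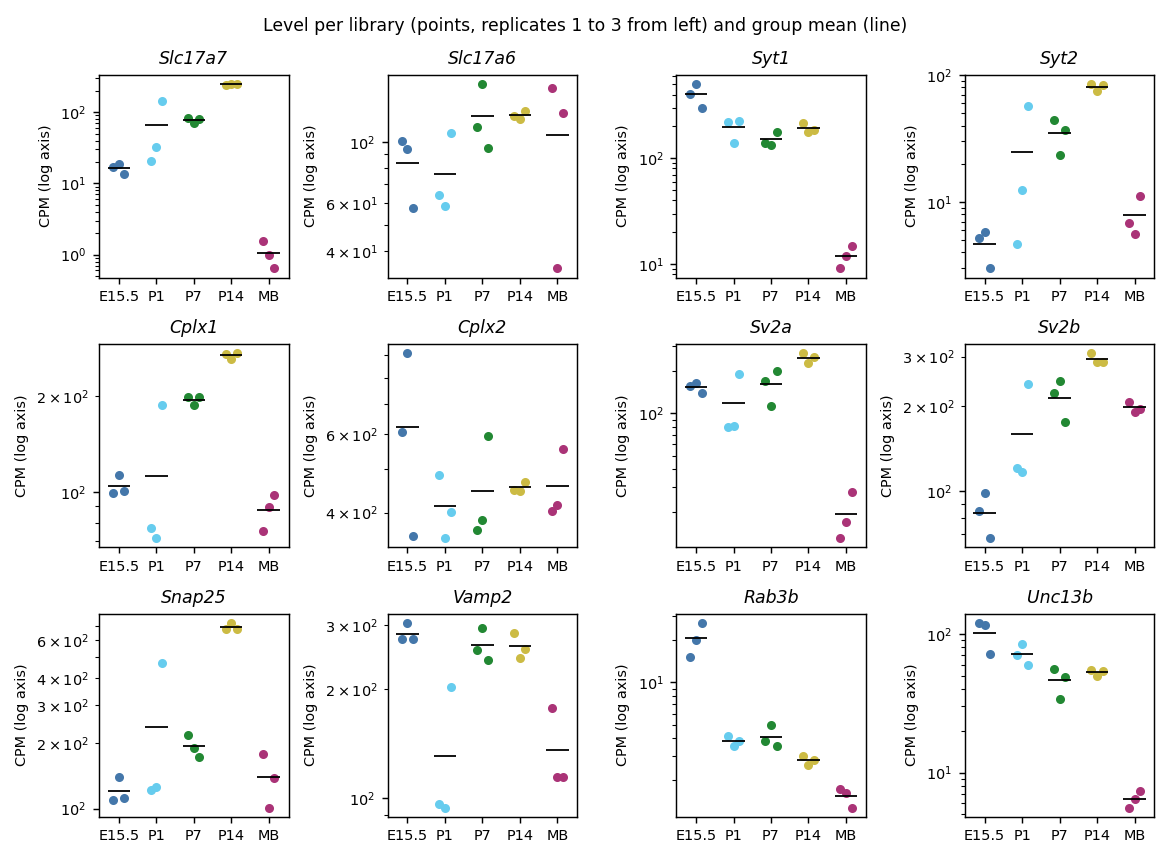
Level in CPM, on log axes, of 12 genes in each library (points, replicates 1 to 3 from the left) with the group mean (line). The MB points are below all precursor points for Slc17a7, Syt1, Sv2a, Rab3b and Unc13b, overlap them for Slc17a6, Cplx2 and Sv2b, and the third P1 point lies above the other 2 for Snap25 and Slc17a7.

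Against P7, 25 of the 38 genes were called lower in MB. Besides the called rises of Doc2a, Syt4 and Rims3, the 10 members not called in MB against P7 were Slc17a6, Sv2b, Snap25, Vamp1, Stx1a, Nsf, Rab3c, Cplx2, Bsn and Rims2. Every member was called lower among the synapsins, whose changes against P7 ran from -3.46 to -0.76, and among the priming factors, from -2.83 to -1.27. Libraries did not overlap between MB and P7 for 27 members, 2 higher and 25 lower, where 17.7% of all genes were higher and 23.9% lower without overlap. Against MB replicate 1 alone, with the spread taken from the other groups, the calls of Vamp2, Napb, Pclo, Rims3, Syn2, Syt2, Syt11 and Unc13c were lost, and with the compared groups alone those of Doc2b, Rims3, Syngr3 and Syt11. For MB against P14 libraries without overlap were 2 higher and 30 lower, against 28.7% and 32.7%. From P1 to P14 it was 26 higher and 4 lower, against 26.5% and 24.9%.

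The spread between replicates differed by group. The median coefficient of variation of the 38 genes was 7.22% at P14, 16.2% at P7, 21.8% at E15.5, 29.8% in MB and 44.1% at P1. The highest values were 115% for Syt2 at P1 and 117% for Doc2b in MB. MB replicate 1 had the lowest MB level of Rab3a (24.6 CPM), Syn1 (27.3 CPM), Syngr3 (6.43 CPM) and Stx1a (21.2 CPM), and the highest of Rims2 (119.7 CPM) and Slc17a6 (157 CPM).

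Other genes of the pathway, from lists made with the members in view, were counted in the same way. Of 27 tested genes of further release machinery, 7 were called higher and 1 lower from P1 to P14, together 29.6% beside 8.94% of all genes (median 0.38), and 2 higher and 12 lower in MB against P7, together 51.9% beside 34.5% (median -0.30). The 3 with the largest falls in MB against P7 were Cadps2, a priming factor of dense-core vesicles (-3.81, FDR 1.75e-08), Syt5, a further synaptotagmin (-3.60, FDR 4.00e-07), and Ppfia4, a liprin-alpha scaffold of the active zone (-2.53, FDR 0.000829). Those higher were Syt13 (2.42, FDR 4.39e-05) and Rimbp2 (2.54, FDR 0.0136). Of 21 tested genes of vesicle recycling, 8 were higher and none lower from P1 to P14, 38.1% beside 8.94% of all genes (median 0.49). In MB against P7, 1 was higher and 6 lower, and their 33.3% is near the 34.5% of all genes (median -0.30). The one that was higher was Cltb, a clathrin light chain, at 729, 724 and 623 CPM in MB and 86.1, 98.5 and 77.1 CPM at P7 (2.99, FDR 2.93e-07). Of 13 SNAREs of general membrane traffic, the median change from P1 to P14 was 0.18, and 1 was called lower in MB against P7, 7.69% beside 34.5% of all genes (median -0.14).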

How the data were processed

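Per the labels' protocols, cells were enriched on Percoll and lysed in Trizol, poly(A) RNA was selected, TruSeq v2 libraries were made and sequenced on a HiSeq instrument. The submitters' processing notes name Trimmomatic, TopHat, StringTie and HTSeq and the build mm9, with no version or role. The authors deposited raw read counts per library, not normalized, in 3 tables: per gene (21889 genes, the main table), per transcription start site model (24735) and per transcript (28246). The summary lines of the gene table, which name no gene, entered neither library sizes nor tests. Genes were named by Ensembl ID, and 20358 matched a symbol. Member positions are those of the transcript table in mm9; Syp had no matched transcript model and so no position or length. Promoters are from RefSeq (GRCm38.p6), and 29 of the 38 members matched.

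Low genes were removed with filterByExpr (count of 10, total of 15), libraries were scaled with TMM, and the 15 libraries entered 1 quasi-likelihood fit by group with edgeR 4.0.16 in R 4.3.3 (10 residual degrees of freedom). P-values were adjusted with the Benjamini-Hochberg method over the 15259 genes tested. The script was tested on simulated data for P14 against P1. It called 26% of 100 simulated 2-fold changes and 82% of 100 simulated 4-fold changes, with 10 false calls among 15066 genes tested. Most 2-fold changes were thus not called in that simulation. It gave every group the same spread per gene. In the data the members' median coefficient of variation was 44.1% at P1 and 7.22% at P14, so these rates may not hold there. CPM per kilobase used the exonic length of the transcript models. The members and lists were chosen with earlier results of these data known. Some genes of the list of further release machinery are not reported here, and its counts and medians leave them out. Values per library are given for the most abundant member of each role, for both glutamate transporters, for the Vamp, Syt and Cplx pairs and for the called members with the 3 largest rises and the 3 largest falls in 4 of the comparisons. The alternatives were DESeq2 1.42.0 (its test, and its size factors in edgeR), no filter, the other tables, the compared groups alone, a replicate block, contrasts within 1 set of libraries counted alike, and leaving out each library.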

Additional observations from a re-analysis of the deposited data

How the results depend on the processing

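The counts of called members in MB against P7 (21 to 28), MB against P14 (22 to 30), P1 against E15.5 (11 to 21) and among the 4 ages (20 to 32) stayed within 1.5 times the reported 28, 29, 16 and 27 under the alternatives run. The shares of all genes called were 25.1% to 38.2%, 40.3% to 52.2%, 36.5% to 49.1% and 44.4% to 70.3% in the same order. These shares leave out fits with 1 library in a compared group. Of the calls, 16 of 28 in MB against P7, 24 of 29 in MB against P14 and 8 of 16 in P1 against E15.5 held in every alternative, and 0 did in the comparisons among P1, P7 and P14. For P14 against P1 (12), the count was 19 with the DESeq2 test (16% of all genes called) and 20 within 1 counting set (18.2%). It was 0 to 24 when a library was left out (0.997% to 17.5%). For P14 against P7 (7), it was 3 with the start site table, which held 28 of the members (10.8% of all genes called). It was 15 with the compared groups alone (25.9%), 4 with the replicate block (8.09%), and 0 to 3 when a library was left out (0.809% to 6.96%). For P7 against P1 (1), it was 0 with DESeq2 size factors, the transcript table, the compared groups alone and the replicate block. In these, 1.39% to 3.03% of all genes were called, and 10 to 14 members had an unadjusted p under 0.05 by edgeR. The count was 2 with the DESeq2 test (7.93%), and 0 to 10 when a library was left out (0.0581% to 5.73%). In P1 against E15.5, leaving out a library gave -0.49 to 0.34 for Cplx1 and -0.73 to 0.41 for Syngr1, with the lower value called in both and reached without P1 replicate 3. Directions also turned for Doc2a (-0.60) there with the transcript table, and for Stx1a (-0.69) in MB against P7 within 1 counting set. Where no value is given, the cause was not tested. With the replicate block the other counts were 15 in P1 against E15.5, 11 in P14 against P1, 26 in MB against P7, 29 in MB against P14 and 27 among the ages. The shares of all genes were 44.1%, 8.49%, 32.4%, 48% and 52.5% in the same order. The block ended the calls of Rims3 and Syt11 in MB against P7, Syt11 in P1 against E15.5, Nsf, Sv2b and Sv2c in P14 against P1, Napb, Slc17a7 and Unc13c in P14 against P7 and Vamp2 in P7 against P1. Replicate numbers did not pair the libraries: 6 of 30 same-numbered pairs had a correlation of deviations over 0.1 (-0.312 to 0.332). P7 against P1, P14 against P7 and the 4 ages could not be fitted within 1 counting set, since the set and the age cannot be told apart there. Where a library was left out, its group was fitted with 2. Within 1 counting set, MB against P7 rests on 1 MB library and P1 against E15.5 on 1 E15.5 library, each assumed to vary like the other groups.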
